A study of Bos taurus with 4 samples.

Results

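Transcripts of 9 genes that build adherens junctions and desmosomes were compared between bovine early blastocysts from the same heifers at 2 donor ages: CTNNB1, JUP, CTNNA1, CTNND1, CDH1, DSC2, DSG2, PKP2 and DSP. The probes were all those on the array whose platform annotation gives 1 of these symbols, 16 of 43794 probes, for 9 of the 15216 genes with a symbol. CTNND1 had 5 probes, DSG2 had 3, DSC2 had 2, and the other 6 genes had 1 each. The annotation gives no position for a probe, so that the exon or transcript form each one reads, and its coordinates, are not stated here.

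Epithelial cells hold together through 2 kinds of junction built on cadherins, membrane proteins whose outer parts bind those of the next cell. In adherens junctions E-cadherin (CDH1) binds beta-catenin (CTNNB1) and p120-catenin (CTNND1) inside the cell, and alpha-catenin (CTNNA1) joins the complex to actin filaments. In desmosomes the cadherins desmoglein and desmocollin (DSG2, DSC2) bind plakoglobin (JUP) and plakophilin (PKP2), and desmoplakin (DSP) joins them to keratin filaments. In the mammalian embryo E-cadherin junctions form at compaction, and desmosomes appear in the trophectoderm, the outer epithelium, as the blastocyst cavity fills. Beta-catenin is also the nuclear effector of canonical Wnt signalling.

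The samples were pools of early blastocysts collected 168 hours after in vitro fertilization with semen of adult bulls, from oocytes of Holstein heifers stimulated with FSH. There were 4 two-colour arrays, 1 for each heifer, on which that heifer's pool of donor age 14 months was hybridised with the pool of donor age 11 months. The 14-month pool carried Cy3 in heifers 1 and 2 and Cy5 in heifers 3 and 4, and the 11-month pool carried the other dye. A heifer was always younger at the earlier collection, so that donor age, collection date and earlier stimulation cannot be told apart. The ratios are the authors' deposited log2 values turned to 14 over 11 months, so that a negative value is a lower signal in the 14-month pool. Levels are log2 fluorescence intensities made from the scanner files; their difference need not equal the deposited ratio exactly, and levels of different probes are not comparable.

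Of all 43794 probes, 60.6% to 76.5% lay above the negative control spots in the 14-month channels, against 63.6% to 73.2% in the 11-month channels. The share was higher in the Cy5 channel of every array, whichever age it held. It was 63.6%, 73.2%, 73.8% and 76.5% in Cy5 in heifers 1 to 4, against 60.6%, 65.7%, 64.2% and 70.4% in Cy3. The ratios of 2 arrays, taken over 36447 tested probes that are not independent of each other, correlated at r = 0.31 and 0.56 within a dye orientation and at -0.17 to 0.12 between orientations. Above background in all 8 channels were 20276 of the 43794 probes. Of the trophectoderm markers, 7 of 9 were above background in all 8 channels, as were 5 of 5 inner cell mass markers, including POU5F1 and SOX2. Of 10 cumulus and granulosa markers 4 were above background in all 8 channels, and AMH and FOXL2 in none. Of 6 sperm markers none was above background in all 8, and ODF1 and AKAP4 were in none. PRM1 and PGK2 were above it on 3 arrays at 14 months and 4 at 11 months. TNP1 was above it on 4 and 3 arrays, and PRM2 on 1 and 0. The summed cumulus and granulosa signal was 10.46 to 10.66 log2 units at 14 months and 10.53 to 10.60 at 11 months. Within it VCAN was higher at 14 months in all 4 heifers, at 0.31 ± 0.14 (SD, n = 4), and TNFAIP6 lower in all 4, at -0.12 ± 0.10. VCAN was above background on 3 arrays at 14 months and 0 at 11 months. The summed oocyte signal was 9.70 to 9.79 at 14 months and 9.62 to 9.81 at 11 months. Within it NLRP5 was higher at 14 months in all 4 heifers, at 0.43 ± 0.23. The summed trophectoderm signal was 15.48 and 15.71 at 14 months in heifers 1 and 2 and 16.51 and 16.56 in heifers 3 and 4. At 11 months it was 16.31, 16.47, 15.65 and 15.52 in heifers 1 to 4, so that it was higher in the Cy5 channel of every array. By gene, KRT8, KRT18 and GATA2 had that pattern on all 4 arrays. CDX2, GATA3, TFAP2C, ELF5, EOMES and TEAD4 did not have 1 sign on all 4 arrays, by dye or by age. In pools, fewer cells of a type and less RNA per cell cannot be told apart.

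CTNNB1 was the member that differed most between the ages: it was lower in the 14-month pool of all 4 heifers, by 0.68 ± 0.35 on the log2 scale (SD, n = 4), or to 0.625 of the 11-month signal. The other 8 genes, each read by its brightest probe, had means between -0.27 and 0.10. All 16 probes passed the filter on dim probes, and none passed an adjusted p of 0.05 in limma's moderated test with Benjamini-Hochberg adjustment over all 36447 probes, where 0% passed. An unadjusted p under 0.05 was found for 1 of 16 probes, that of CTNNB1, against 9.2% of all tested probes. None of the 16 was higher at 14 months by that measure or in all 4 heifers, against 5.11% and 7.82% of all probes. The median of the 9 genes was -0.07, beside -0.02 for all 13519 genes tested, with 6 of the 9 below 0 and 54% of all probes below 0. The SDs of the 16 probes over heifers ran between 0.09 and 0.51, and the median SD of all probes was 0.27.

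**Figure D1:**
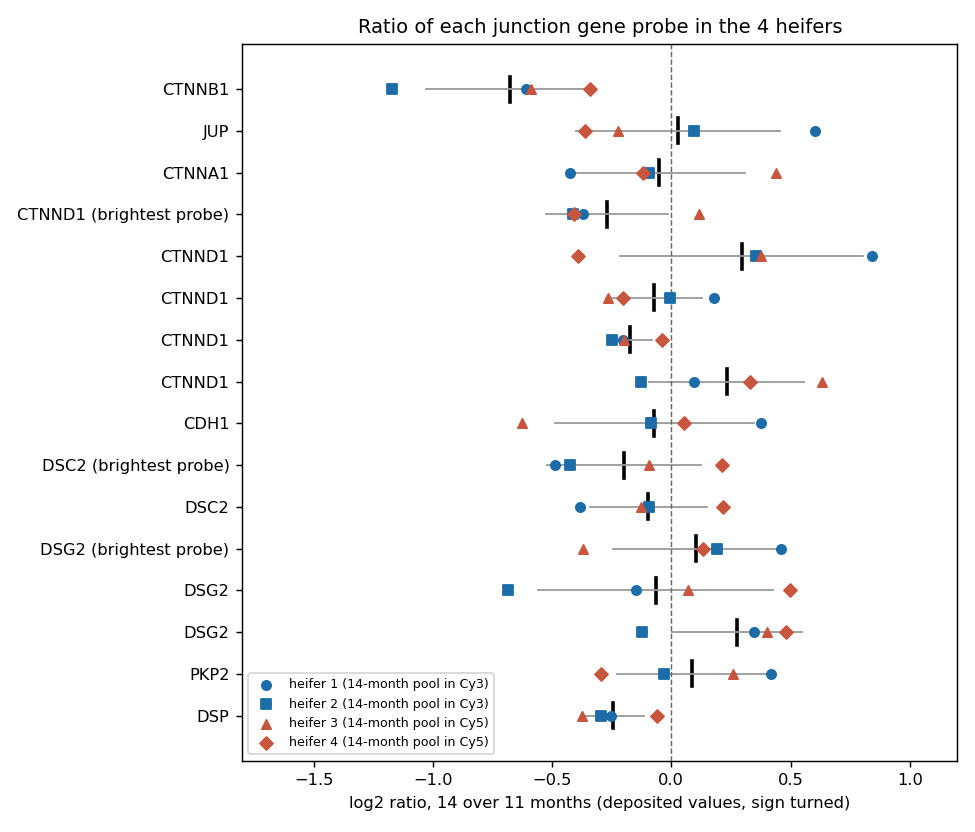
Log2 ratio of 14 over 11 months for each of the 16 probes; symbols are the 4 heifers, coloured by dye orientation, black bars the mean and grey lines 1 SD to each side. CTNNB1 lies between -1.17 and -0.34 in all 4 heifers, and most other probes have heifers on both sides of 0.

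CTNNB1 had levels of 12.34, 11.80, 12.01 and 12.26 in the 14-month pools of heifers 1 to 4, against 12.83, 12.98, 12.64 and 12.50 in their 11-month pools. Every 14-month level was below every 11-month level, so that the groups did not overlap, as in 3.03% of all tested probes. The mean level was 12.10 ± 0.25 at 14 months and 12.74 ± 0.21 at 11 months (SD, n = 4 each). The deposited ratios were -0.61, -1.17, -0.59 and -0.34 in heifers 1 to 4. All 4 had the same sign, as did 8.84% of all probes in this direction. The sign was the same whichever dye the 14-month pool carried, and heifer 2 had the largest difference and heifer 4 the smallest.

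In the fit over all probes the CTNNB1 difference had a 95% interval of -1.03 to -0.33, an unadjusted p of 0.00177 (4.09% of probes were lower at an unadjusted p under 0.05) and an adjusted p of 0.334 in limma. Its mean was -0.89 in heifers 1 and 2, where it alone of the 16 probes passed (adjusted p 0.0150 in limma; 7.2% of all probes passed), and -0.46 in heifers 3 and 4, where none of the 16 did (adjusted p 0.257; 0.00274% of all probes passed). Each of these pairs of arrays has 1 dye orientation, so that age and dye cannot be told apart within it. With a gene-specific dye term added to the fit, the same mean had an adjusted p of 0.044 in limma, and 373 probes passed, 1.02% of those tested. That call was lost, at an adjusted p of 0.101, with the same dye term on ratios made from the scanner files, where 0 probes passed in limma and 3688 were higher and 2248 lower before adjustment. Without heifer 2 the mean was -0.51 and the adjusted p 0.974 in limma, the lowest that any tested probe had in that fit. Without heifer 1, 3 or 4 the adjusted p of CTNNB1 was 0.410, 0.464 and 0.233 in limma.

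The summed signal of 5 inner cell mass markers was also lower at 14 months, with no test of the sum. On the log2 scale it was 13.38 to 13.57 at 14 months and 13.49 to 13.77 at 11 months, with the 14-month pool lower in every heifer, in heifer 4 by less than 0.001. The 5 genes did not share that direction. NANOG alone was lower in all 4 heifers, at -1.12 ± 0.37 (adjusted p 0.328 in limma). SPP1 was higher in all 4, at 0.48 ± 0.19, and POU5F1, SOX2 and KLF4 had means of -0.04, 0.30 and -0.02. The mean level of NANOG was 10.31 at 14 months and 11.40 at 11 months. Those of POU5F1 were 11.76 and 11.80, of KLF4 12.59 and 12.58, of SOX2 7.70 and 7.37, and of SPP1 7.31 and 6.90. The part of cell makeup in the CTNNB1 difference was not tested.

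Within a heifer, the CTNNB1 ratio was set against that of each other member. It was lower than the ratio of CTNNA1, DSC2, DSG2, PKP2 and DSP in all 4 heifers and lower than that of JUP, CTNND1 and CDH1 in 3 of 4. The mean differences ran between -0.78 ± 0.53 against DSG2 and -0.41 ± 0.39 against CTNND1 (SD, n = 4). An exact two-sided sign-flip test of 4 heifers cannot give a p below 0.125, the value reached in the 5 comparisons with 1 sign, and the other 3 gave 0.25. These 8 comparisons share the CTNNB1 values, and CTNNB1 was set against the rest after its values were seen.

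**Figure D2:**
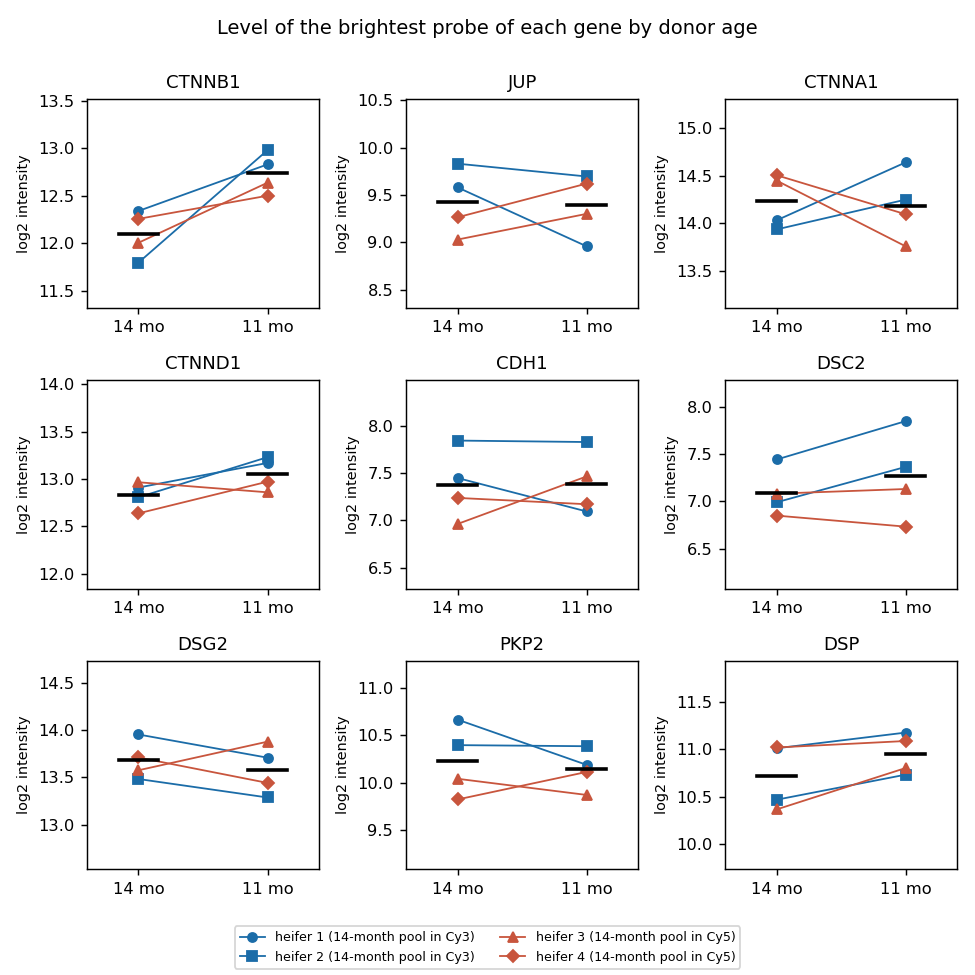
Log2 intensity of the brightest probe of each gene in the 14-month (left) and 11-month (right) pool, with a line for each heifer coloured by dye orientation and black bars for the means over 4 heifers; all axes span an equal number of log2 units around that gene's mean. In CTNNB1 all 4 lines run the same way and the 14-month points lie below the 11-month points, whereas in JUP and CTNNA1 the lines of the 2 orientations run opposite ways on balance.

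JUP encodes plakoglobin, the close relative of beta-catenin that serves both kinds of junction. Its levels were 9.58, 9.83, 9.03 and 9.26 in the 14-month pools of heifers 1 to 4, against 8.96, 9.69, 9.30 and 9.62 in the 11-month pools. The ratios were 0.60, 0.10, -0.23 and -0.36. They were above 0 in the heifers whose 14-month pool carried Cy3 and below 0 in the others, so that the Cy3 signal was the higher one on all 4 arrays, as in 12.7% of all probes. The mean over the 4 heifers was 0.03 ± 0.43, with a 95% interval of -0.36 to 0.41. The orientation term of JUP had an adjusted p of 0.160 in limma, and none of the 16 probes passed for that term, against 2.38% of all probes.

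CTNNA1, the alpha-catenin that binds both beta-catenin and actin, had levels of 14.03, 13.94, 14.45 and 14.51 at 14 months, against 14.64, 14.25, 13.76 and 14.09 at 11 months in heifers 1 to 4. The levels overlapped, with the 14-month pool lower in heifers 1 and 2 and higher in heifers 3 and 4. The deposited ratios were -0.43, -0.10, 0.44 and -0.12, with a mean of -0.05 ± 0.36 and a 95% interval of -0.40 to 0.30. The mean turned to 0.045 with ratios made from the scanner files, so that no direction can be given for this gene. In heifer 4 the 2 sources also differed in sign, -0.12 in the deposited ratios and higher at 14 months in the levels.

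CTNND1 encodes p120-catenin, which binds the cadherin tail near the membrane and slows the endocytosis of cadherins. Its brightest probe, EMBV3_34448, had levels of 12.91, 12.81, 12.97 and 12.64 at 14 months, against 13.17, 13.23, 12.86 and 12.97 at 11 months in heifers 1 to 4. The 14-month pool was lower in 3 of 4 heifers and higher in heifer 3. The ratios were -0.37, -0.41, 0.11 and -0.41, with a mean of -0.27 ± 0.26, a 95% interval of -0.58 to 0.04 and an adjusted p of 0.617 in limma. With the gene-specific dye term its unadjusted p was 0.0487 (adjusted p 0.299 in limma), and with mean foreground signals its mean was -0.16.

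The 5 CTNND1 probes did not give 1 direction. The second brightest, EMBV3_19426, had ratios of 0.84, 0.35, 0.38 and -0.39, with a mean of 0.30 ± 0.51 that was 0.11 without heifer 1 and 0.52 without heifer 4, and its ratio was above that of the brightest probe in all 4 heifers, by 1.21, 0.77, 0.26 and 0.02. The exact sign-flip p of that difference was 0.125, the lowest that 4 heifers allow. The other 3 probes were dim, with mean levels of 6.65 to 6.84 at 14 months and 6.52 to 6.86 at 11 months, beside negative control limits of 6.56 to 6.73. Of these, EMBV3_35321 was lower in the 14-month pool of all 4 heifers, at -0.17 ± 0.09, as were 8.84% of all probes. Its levels did not overlap, though barely: the highest was 6.76 at 14 months and the lowest 6.77 at 11 months. Levels did not overlap in 2 of the 16 probes, this one and that of CTNNB1, against 3.03% of all tested probes. EMBV3_35321 was above background on 3 arrays at 14 months and 4 at 11 months. EMBV3_19313, at 0.23 ± 0.32, was above background on 3 arrays at 14 months and 1 at 11 months, so that its ratio is uncertain. EMBV3_07400 was at -0.07 ± 0.20, and at -0.0097 without heifer 3.

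CDH1, E-cadherin itself, was read by 1 dim probe. Its median spot signals were 230, 256, 62 and 101 intensity units at 14 months, against 131, 157, 258 and 217 at 11 months in heifers 1 to 4, over local backgrounds of 15 to 20. These uncorrected signals were higher at 14 months where that pool carried Cy3 and lower where it carried Cy5. That was not particular to CDH1. Every other member probe had the same pattern before correction, except those of CTNNB1 and CTNNA1 and EMBV3_34448 of CTNND1. After normalization within arrays the levels were 7.45, 7.84, 6.96 and 7.24 at 14 months, against 7.10, 7.83, 7.47 and 7.17 at 11 months. The ratios were 0.38, -0.09, -0.63 and 0.05, with 2 heifers on each side of 0. The mean of -0.07 ± 0.42 had a 95% interval of -0.45 to 0.31, and its sign turned to 0.11 without heifer 3. E-cadherin mRNA was thus above background in all 8 channels, and no difference between the ages was detectable with 4 arrays.

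None of the 5 probes of the desmosomal cadherins passed the adjusted test. DSG2, a desmoglein of simple epithelia, had levels of 13.95, 13.48, 13.58 and 13.71 at 14 months, against 13.71, 13.29, 13.88 and 13.44 at 11 months in heifers 1 to 4 by its brightest probe, EMBV3_26821. Its ratios were 0.46, 0.19, -0.37 and 0.13, above 0 in 3 of 4 heifers, with a mean of 0.10 ± 0.35 and a 95% interval of -0.24 to 0.45. The probe EMBV3_17891, also bright, had ratios of -0.15, -0.68, 0.07 and 0.50 and a mean of -0.07 ± 0.49. Its signal was higher in the Cy5 channel on all 4 arrays, as in 12% of all probes, and the ratio of EMBV3_26821 minus that of EMBV3_17891 was 0.61 and 0.88 in heifers 1 and 2, and -0.44 and -0.37 in heifers 3 and 4. The third DSG2 probe, EMBV3_14501, was above background on 4 arrays at 14 months and 2 at 11 months and had a mean of 0.28 ± 0.27, higher in 3 of 4 heifers. Its adjusted p was 0.614 in limma, and with the gene-specific dye term its unadjusted p was 0.0407 (adjusted p 0.276). With mean foreground signals from the scanner files its mean was 0.053.

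DSC2, the desmocollin that pairs with desmoglein 2 in simple epithelia, was dimmer. By its brighter probe, EMBV3_07540, levels were 7.44, 6.99, 7.08 and 6.85 at 14 months, against 7.85, 7.36, 7.13 and 6.73 at 11 months in heifers 1 to 4. The 14-month pool was lower in 3 of 4 heifers, with ratios of -0.49, -0.42, -0.09 and 0.21 and a mean of -0.20 ± 0.32 that was -0.10 without heifer 1 and -0.33 without heifer 4. The second probe, EMBV3_29179, above background on 2 arrays at 14 months and 4 at 11 months, ran the same way heifer by heifer, at -0.38, -0.09, -0.13 and 0.22 with a mean of -0.10 ± 0.25, which was -0.0011 without heifer 1. The adjusted p was 0.764 and 0.896 in limma for these probes. DSC2 was thus the multi-probe gene whose probes had 1 sign in each heifer.

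Of the proteins of the desmosomal plaque, DSP had the steadier difference. Desmoplakin, which anchors keratin filaments, had levels of 11.01, 10.47, 10.37 and 11.02 at 14 months, against 11.18, 10.73, 10.80 and 11.09 at 11 months in heifers 1 to 4. The levels of the ages overlapped between heifers, while within each heifer the 14-month pool was lower. The ratios were -0.25, -0.29, -0.37 and -0.06, with a mean of -0.25 ± 0.13, or 0.844 of the 11-month signal. The mean was -0.27 in heifers 1 and 2 and -0.22 in heifers 3 and 4. The 95% interval was -0.52 to 0.03, with an unadjusted p of 0.077 and an adjusted p of 0.606 in limma. With the gene-specific dye term DSP had an unadjusted p of 0.0493 (adjusted p 0.300 in limma), 1 of 4 such probes among the 16, against 16.5% of all probes.

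PKP2, the plakophilin of simple epithelia that links desmosomal cadherins to desmoplakin, had levels of 10.67, 10.40, 10.04 and 9.82 at 14 months, against 10.19, 10.39, 9.87 and 10.12 at 11 months in heifers 1 to 4. The ratios were 0.42, -0.03, 0.26 and -0.30, with 2 heifers on each side of 0. Their mean was 0.09 ± 0.32, with a 95% interval of -0.25 to 0.42. The groups overlapped and the adjusted p was 0.916 in limma.

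**Figure D3:**
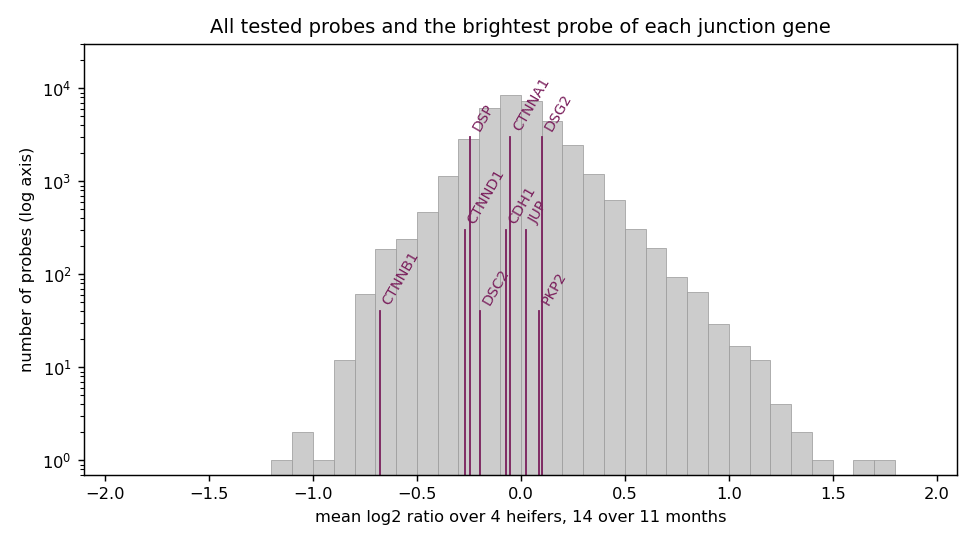
Number of tested probes (log axis) by mean log2 ratio of 14 over 11 months over 4 heifers, in bins of 0.1, with lines at the mean of the brightest probe of each of the 9 genes; line heights only separate the labels. CTNNB1 at -0.68 lies in the lower tail, among the 2% of probes with a mean of at least 1.5-fold in either direction, and the other 8 genes lie between -0.27 and 0.10.

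Taken by heifer, the median over the brightest probes of the 9 genes was -0.25, -0.10, -0.23 and -0.12 in heifers 1 to 4, against -0.011, -0.012, -0.0028 and -0.026 over all tested probes, with 5, 7, 6 and 6 of the 9 genes below 0. It was thus below 0 in every heifer, with genes on both sides of 0 in each, and was not tested as a group. The lowest member was CTNNB1 in heifers 1 and 2, CDH1 in heifer 3 and CTNND1 in heifer 4. The highest was JUP in heifer 1, DSG2 in heifer 2, CTNNA1 in heifer 3 and DSC2 in heifer 4. CTNNB1 and DSP were the 2 of 9 genes with 1 sign in all 4 heifers, or 3 of 16 probes with EMBV3_35321 of CTNND1, against 16.7% of all probes. By dye, 2 of 16 probes had 1 sign on all 4 arrays, against 24.6% of all probes.

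**Figure D4:**
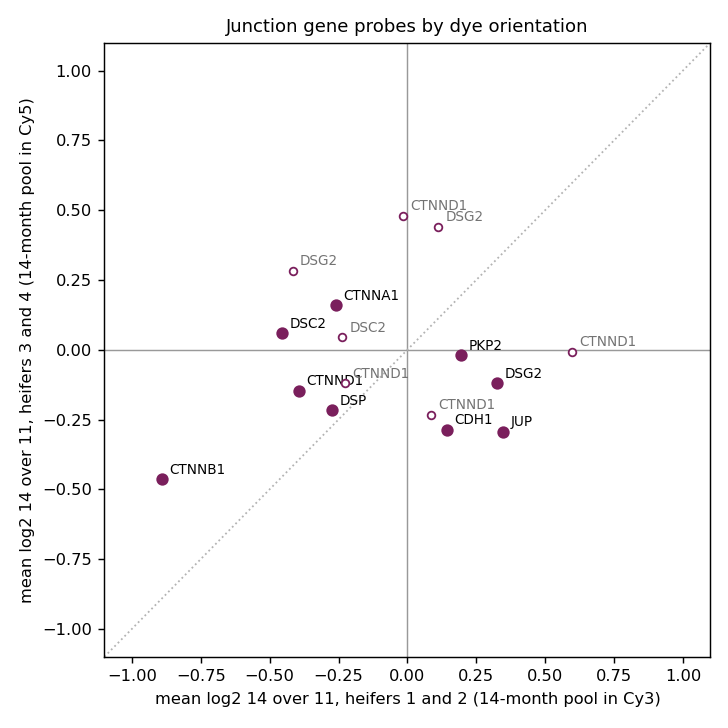
Mean log2 ratio of 14 over 11 months in heifers 3 and 4 (14-month pool in Cy5) against the mean in heifers 1 and 2 (14-month pool in Cy3) for the 16 probes; filled points are the brightest probe of each gene and open points the others, and the dotted line marks equal values. CTNNB1, DSP and the brightest and 1 dim CTNND1 probe lie below 0 on both axes. JUP, CDH1, PKP2, the brightest DSG2 probe and EMBV3_19426 and EMBV3_07400 of CTNND1 lie above 0 in heifers 1 and 2 and below 0 in heifers 3 and 4. Of these, PKP2 and EMBV3_19426 are close to 0 in heifers 3 and 4, at -0.02 and -0.007.

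Other genes of these junctions and of the beta-catenin pathway were read by 1 probe each, the brightest. Of 67 such genes tested in 5 lists, 0 passed an adjusted p of 0.05 in limma. Before adjustment 3 had a p under 0.05 with a higher and 5 with a lower signal at 14 months. That is 11.9% of them, against 9.34% of all 13519 genes tested. Their median was -0.02, as over all genes.

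Of 24 other adherens junction genes, 2 had such a p, 1 in each direction, and the list had a median of -0.09. The 2 were classical cadherins. CDH2, N-cadherin, had ratios of -0.33, -0.16, -0.84 and -0.24, lower in all 4 heifers, with a mean of -0.39 ± 0.31, which was -0.24 without heifer 3. CDH3, P-cadherin, had ratios of 0.10, 0.20, 0.47 and 0.42, higher in all 4 heifers, with a mean of 0.30 ± 0.18. Their adjusted p was 0.467 and 0.532 in limma. Of 7 other desmosome genes tested, none had an unadjusted p under 0.05 and the median was 0.04. The 2 with the smallest p were the plakin PPL at -0.22 ± 0.17 and the desmoglein DSG3 at -0.20 ± 0.28, both lower in 3 of 4 heifers. DSG3 was at -0.12 with scanner ratios and -0.34 without heifer 1.

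Of 11 genes that control the turnover of beta-catenin protein, 1 was lower at an unadjusted p under 0.05, and the median was 0.13. That gene was CSNK1A1, the casein kinase that first phosphorylates beta-catenin for destruction, with ratios of -0.14, -0.43, -0.13 and -0.59 and a mean of -0.32 ± 0.23. GSK3A, which acts with GSK3B in the next phosphorylation, was at 0.33 ± 0.51, higher in 3 of 4 heifers, with a mean of 0.13 without heifer 1 and 0.50 without heifer 3. The scaffold APC was at 0.04 ± 0.05.

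Of 15 nuclear partners and targets of beta-catenin tested, 2 had such a p, 1 in each direction, and the median was -0.01. TNFRSF19, a receptor gene known as a Wnt target in human and mouse cells, had ratios of 0.51, 1.01, 0.34 and 0.67, higher in all 4 heifers, with a mean of 0.63 ± 0.28 and an adjusted p of 0.334 in limma. PYGO2, a co-activator that joins the beta-catenin complex through BCL9, had ratios of -0.47, -0.44, -0.56 and -0.31, lower in all 4, with a mean of -0.45 ± 0.10 and an adjusted p of 0.355. AXIN2, a widely used Wnt target that was listed with the turnover genes, was at 0.13 ± 0.23, LEF1 at 0.07 ± 0.13 and MYC at 0.17 ± 0.21, none with an unadjusted p under 0.05.

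The last list held regulators of E-cadherin transcription and of the epithelial state, and also VIM, which was listed with them as a gene of mesenchymal cells. Of its 10 genes tested, 3 had such a p, 1 with a higher and 2 with a lower signal at 14 months. That is 30%, against 9.34% of all genes tested, and the list was not tested as a set. Its median was -0.07. VIM, the intermediate filament protein of mesenchymal cells, had ratios of -0.60, -0.09, -0.65 and -0.998 and a mean of -0.58 ± 0.38, from a probe above background on 3 of 4 arrays at each age. With scanner ratios the VIM mean was -0.38, and with mean foreground signals -0.31. OVOL1 was at -0.34 ± 0.27, lower in all 4 heifers (-0.18 with mean foreground signals), and OVOL2 at 0.32 ± 0.17, higher in all 4; both encode zinc finger factors that repress mesenchymal genes in mouse epithelia. The adjusted p of the 3 was 0.355, 0.519 and 0.489 in limma. Of the E-cadherin repressors, ZEB1 and SNAI2 were above background in none of the 8 channels, and SNAI1 was above it in all 8, at 0.19 ± 0.39.

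**Figure D5:**
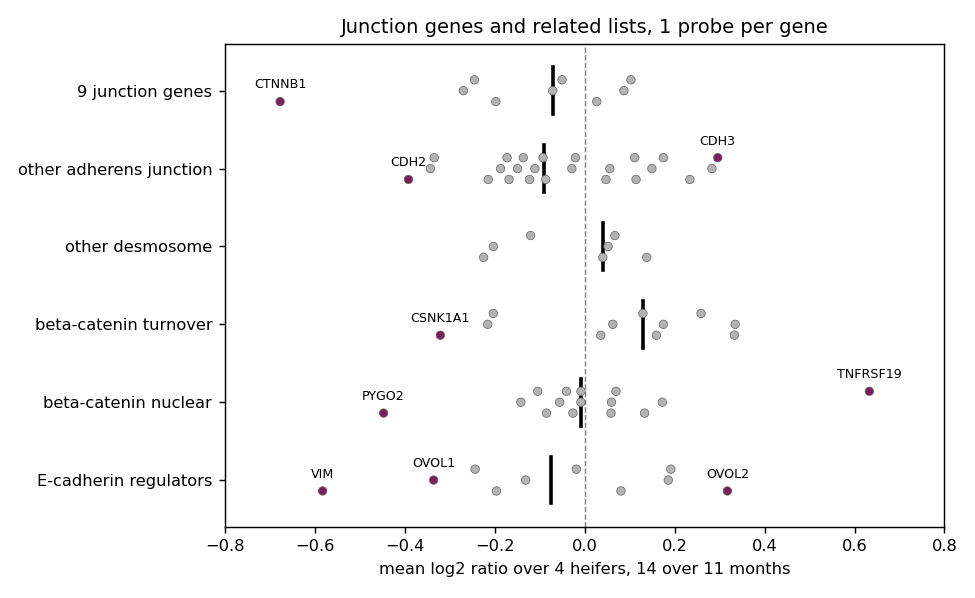
Mean log2 ratio of 14 over 11 months over 4 heifers for the 9 junction genes and the tested genes of 5 related lists, 1 probe per gene; coloured points with names have an unadjusted p under 0.05, none passed after adjustment, and black bars are list medians. List medians lie between -0.09 and 0.13, and CTNNB1 at -0.68 and TNFRSF19 at 0.63 are the lowest and highest points.

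The genes whose 4 ratios were closest to those of CTNNB1, among 12750 genes, were HOXC4, PUM2 and STMP1, at a root mean square difference of 0.12, 0.12 and 0.13 log2 units over 4 arrays. Their means were -0.67, -0.72 and -0.58. The closest to CDH1 were IL1RAP, APOOL and ULBP21, at 0.05, 0.06 and 0.08, with means of -0.06, -0.12 and -0.04. With 4 values per gene such closeness is a description of these arrays.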

How the data were processed

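The data were 4 two-colour arrays. The members, gene lists and tests were chosen with earlier results of these data known. Per the labels' protocols, total RNA of embryo pools was amplified linearly in 2 rounds and labelled chemically with Cy3 or Cy5; amplification can change the relation between transcripts. The authors deposited spot and background intensity per channel, uncorrected, per the file headers, and log2 ratios in a table and a series matrix. The sources used here do not state how the authors normalized the ratios. The matrix equals the table within 5e-06, with the sign turned in heifers 3 and 4. Set against background-subtracted, loess-normalized scanner ratios of 14 over 11 months, the matrix as deposited correlated at -0.993, -0.986, -0.993 and -0.991, so that it runs 11 over 14 months, and slopes of 0.884 to 1.08 in size gave base 2. Its medians were 0.00853, 0.00336, 0.00104 and 0.0234; how the authors centred the ratios and subtracted background is unknown.

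The matrix ratios, turned to 14 over 11 months, were fitted with lmFit and eBayes (limma 3.58.1, R 4.3.3; Python 3.11.15 and matplotlib 3.10.9 for plots), with 1 coefficient, the mean over 4 heifers, two-sided, and Benjamini-Hochberg adjustment over 36447 probes. With 2 arrays in each orientation a dye effect drops out of that mean but stays in the residual spread. These probes had a mean log2 intensity more than 2 SD above the mean of 153 negative control spots, a limit of 6.50. The same rule, applied to the levels of each channel, defined "above background", with limits of 6.56 to 6.73. Levels were made from median intensity by normexp with an offset of 50, loess and Aquantile scaling. Scanner ratios of 14 over 11 months by the same normexp and loess correlated less closely with the matrix as deposited. The correlations were -0.989, -0.960, -0.968 and -0.914 in heifers 1 to 4. Slopes of the matrix on these ratios were 1.07 to 1.39 in size. The array platform's annotation names 21790 probes with 1 gene symbol, 0 with several and 22004 with none; 1524 probes had their symbol updated through the ARS-UCD2.0 gene table, and for 241 it was not found there. Every probe of the 9 genes was reported. Of each list, all genes at an unadjusted p under 0.05 were named, and the 2 with the smallest p where fewer than 2 had it; APC, AXIN2, LEF1, MYC, SNAI1, SNAI2 and ZEB1 were named after their values were seen. Precision is limited by there being 4 arrays. Alternatives changed the source of the ratios, background correction, centring, filter, dye term, pairing and the heifers included.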

Additional observations from a re-analysis of the deposited data

Results flagged for a closer look

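Of the 16 probes, 1 had a heifer far from the other 3. For the brightest CTNND1 probe, EMBV3_34448, heifer 3 was at 0.115 on the log2 scale of 14 over 11 months, while the others lay between -0.41 and -0.37. The gap was 0.921 of the whole range, above Dixon's 95% limit for 4 samples. Chance flags about 1 in 20 groups, and 16 were looked at. Without heifer 3 the mean of this probe was -0.40, against -0.27 with all 4, and in neither case did it pass an adjusted p of 0.05 in limma. In heifer 3 the dimmer probes of CTNND1 lay on both sides of 0.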

How the results depend on the processing

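CTNNB1 kept its sign under all 14 alternatives, at -0.79 to -0.51, with adjusted p between 0.044 and 0.974 in limma, and DSP kept its own, at -0.31 to -0.20. The probes of DSC2, all 5 of CTNND1 and EMBV3_14501 of DSG2 kept theirs in every alternative in which they were tested, but their means moved by over 1.5 times in 1 or more. With a gene-specific dye term 373 probes passed in place of 0, and 1 member gene, CTNNB1. With scanner channels and no replicate block, 1 probe passed and CTNNB1 was at -0.64 with an adjusted p of 0.301. The mean of CTNNA1 turned to 0.045 with scanner ratios, with or without a dye term or the block, to 0.00065 without background correction and to 0.11 with median centring, and ran from -0.21 to 0.075 without 1 heifer. CDH1 turned to 0.0091 with mean foreground signals and 0.0054 with median centring, and ran from -0.22 to 0.11 without 1 heifer. With mean foreground signals EMBV3_26821 of DSG2 turned to -0.029 and EMBV3_17891 to 0.025. Without 1 heifer these ran from -0.016 to 0.26 and from -0.25 to 0.14, JUP from -0.16 to 0.16 and PKP2 from -0.023 to 0.22. The causes were not tested. At an unadjusted p under 0.05, 1862 probes were higher and 1490 lower at 14 months; the counts were 1072 and 978 with median centring, 3226 and 2799 with the dye term, 3688 and 2248 with that term on scanner ratios, while without heifer 2 there were 1002 higher, 61.2% of all with such a p. They were 1222 and 1153 with the stricter filter, and 1915 and 657 without the block, or 74.5% higher against 55.5%. Of the 16 probes 2 had such a p with scanner ratios, with mean foreground signals, with the dye term on scanner ratios, or without heifer 2, 3 or 4, and 4 with the dye term. The dye term on scanner ratios was chosen after seeing the data. Dim probes, such as those of CDH1 and DSC2, lie close to the negative controls and limit what their ratios can show.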
